A study of Rattus norvegicus with 18 samples.

Results

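In mesenchymal stromal cells (MSCs) taken from the bone marrow of aged rats and cultured to passage 100 (aMSCs P100), 196 genes were detected that were not detected in any of the other 5 groups. The array gives each probe a detection p-value, the rank of its signal against the negative control beads of the same array. A gene was a member where the mean of its 3 detection p-values was at most 0.01 in aMSCs P100 and above 0.01 in each of the other 5 groups. Members were 2.06% of the 9531 genes detected in at least 1 group, and the array holds 22018 genes in all. Of the 196 members, 99 carry a gene symbol and 97 are known only by their probe. Because the detection values chose the members, their levels and counts are given as a description, without a test.

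The donors were male Sprague Dawley rats, and the cells were selected from bone marrow by plastic adherence. Cells of 3-week-old rats (yMSCs) and of 12-month-old rats (aMSCs) were measured at passages 2, 30 and 100, which gives the groups yMSCs P2, aMSCs P2, yMSCs P30, aMSCs P30, yMSCs P100 and aMSCs P100, each on 3 RatRef-12 BeadChip arrays. The labels name no treatment and no genetic change in any group. They do not say whether the 3 arrays of a group came from separate animals or cultures, so p-values measure only the spread between these arrays, which may be technical. The paper describes the long-term cultures that it examined at P30 and P100 as a pair, aMSCs and yMSCs. If each was a single line, a trait of that line cannot be told apart from donor age and passage. The RNA came from whole cultures, in which fewer cells of a type and less RNA per cell cannot be told apart.

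MSCs are stromal cells that adhere to plastic and can form bone, cartilage and fat. In the marrow such cells hold and feed blood progenitors through adhesion molecules and cytokines. Axon guidance molecules and enzymes that act on drugs, which several members code for, are best known from brain and liver.

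The arrays differed in background. The lowest intensity of a detected probe was 45.6 to 53.9 on the 6 arrays of P2, 68.2 to 72.4 on those of aMSCs P100 and 74.0 to 81.3 on the 9 arrays of both P30 groups and yMSCs P100. Probes detected numbered 8608 to 9157, 8218 to 9157 and 7593 to 8288 in the same order, and the part of this difference in the membership was not tested. Of 6 MSC surface markers on the array, aMSCs P100 had the RNA of all 6 detected, the sixth being the member Vcam1. The other groups had 4 or 5. The rule sets Vcam1 as detected in aMSCs P100 alone, so this difference in counts is not read. Apart from Vcam1, only Nt5e in yMSCs P100 went undetected. By flow cytometry the paper reported the proteins of these markers on both aMSCs P100 and yMSCs P100. Neither Ptprc nor Cd34, markers of blood cells, was detected in any group, nor was any of the endothelial markers Cdh5, Tek and Vwf or the neuronal markers Map2, Syp and Snap25. Over the whole lists on the array, 2 of 10 endothelial genes were detected in aMSCs P100 and 2 or 3 in the other groups, and 3 of 18 neuronal genes against 2 to 4. Of 15 macrophage and monocyte genes 1 was detected in aMSCs P100, against 1 to 10. Of 10 epithelial genes 2 were detected in aMSCs P100, against 1 to 3, and Epcam, Cdh1, Krt18 and Krt19 were detected in no group. Krt8, a keratin of simple epithelia, was detected in aMSCs P100 and in 4 other groups, but its mean log2 intensity was 10.54 in aMSCs P100 against 5.24 to 6.40 in the others. It was higher than in aMSCs P30 by 4.14 ± 0.19 (SE, limma, adjusted p = 3.93e-11). Its part in the membership was not tested.

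For comparison, the same rule applied to each other group gave 181 genes for yMSCs P2, 164 for aMSCs P2, 39 for yMSCs P30, 40 for aMSCs P30 and 42 for yMSCs P100. The aMSCs P100 count was thus more than 4 times that of any other long-term culture, and close to those of the P2 groups. It was 2.39% of all genes detected in aMSCs P100, against 0.498% to 0.556% for the long-term groups yMSCs P30, aMSCs P30 and yMSCs P100. In the opposite direction, 42 genes were detected in every group but aMSCs P100.

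**Figure D1:**
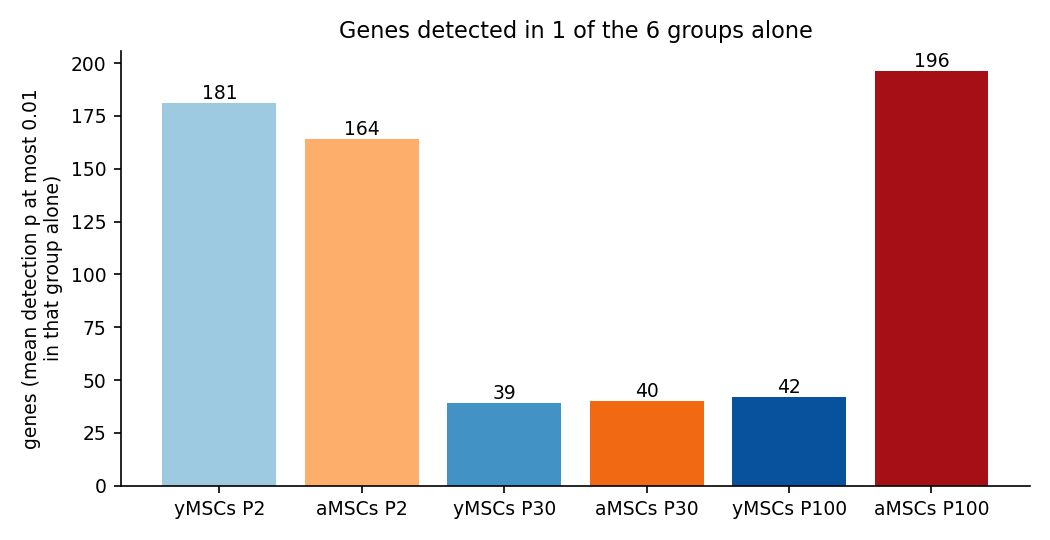
Number of genes (y axis) whose mean detection p was at most 0.01 in 1 group alone, for each of the 6 groups (x axis). aMSCs P100 had 196 such genes and the other 3 long-term groups had 39 to 42.

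Only some of the 196 genes were absent from every other array. On aMSCs P100 replicates 1, 2 and 3, 184, 190 and 147 members were detected, and 131 members were detected on all 3 of these arrays, 63 on 2 and 2 on 1. On single arrays of the other groups, 6 (aMSCs P30 replicate 3) to 40 (aMSCs P30 replicate 1) of the members passed the same limit. In all, 71 members were detected on none of the 15 other arrays and 125 on at least 1, and no member was detected on more than 7. The strictest form, detection on all 3 aMSCs P100 arrays and on no other array, held for 52 members, 28 of them named.

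**Figure D2:**
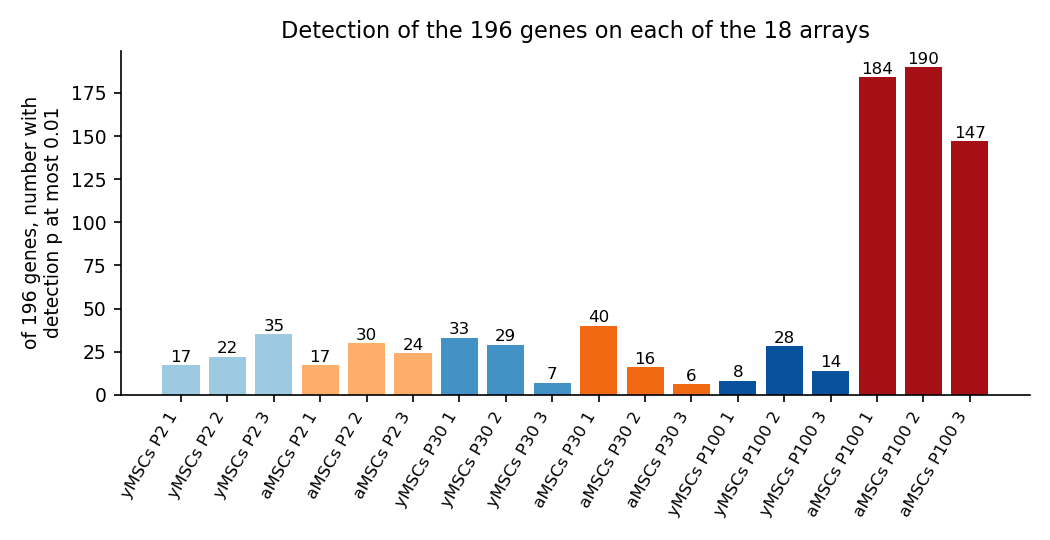
Number of the 196 genes with a detection p of at most 0.01 (y axis) on each of the 18 arrays (x axis, by group and replicate). The aMSCs P100 arrays detected 147 to 190 of them and the other arrays 6 to 40.

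In level, the members were a mixture of a few bright genes and many near the detection limit. The median member stood at 5.44 in aMSCs P100 on the log2 scale of normalized intensity, against 7.75 for all genes detected there, and 34 members stood above 6. Setting the aMSCs P100 mean of each member against the highest mean among the other 5 groups gave a median difference of 0.42 (log2), with quartiles of 0.03 and 0.93. The difference reached at least 1 in 43 members (25 named) and at least 2 in 15, and lay between 0 and 1 in 111. In the remaining 42 members the mean of another group was higher than that of aMSCs P100, down to -0.36 for Rhox12. These differences depend on the offset of 16 added to the intensities. With an offset of 50 the median was 0.22, and the 25 named members with the widest gaps ranged from 0.56 to 4.25. All 3 aMSCs P100 arrays lay above all 15 other arrays in 97 members, and in 4.56% of all tested genes.

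**Figure D3:**
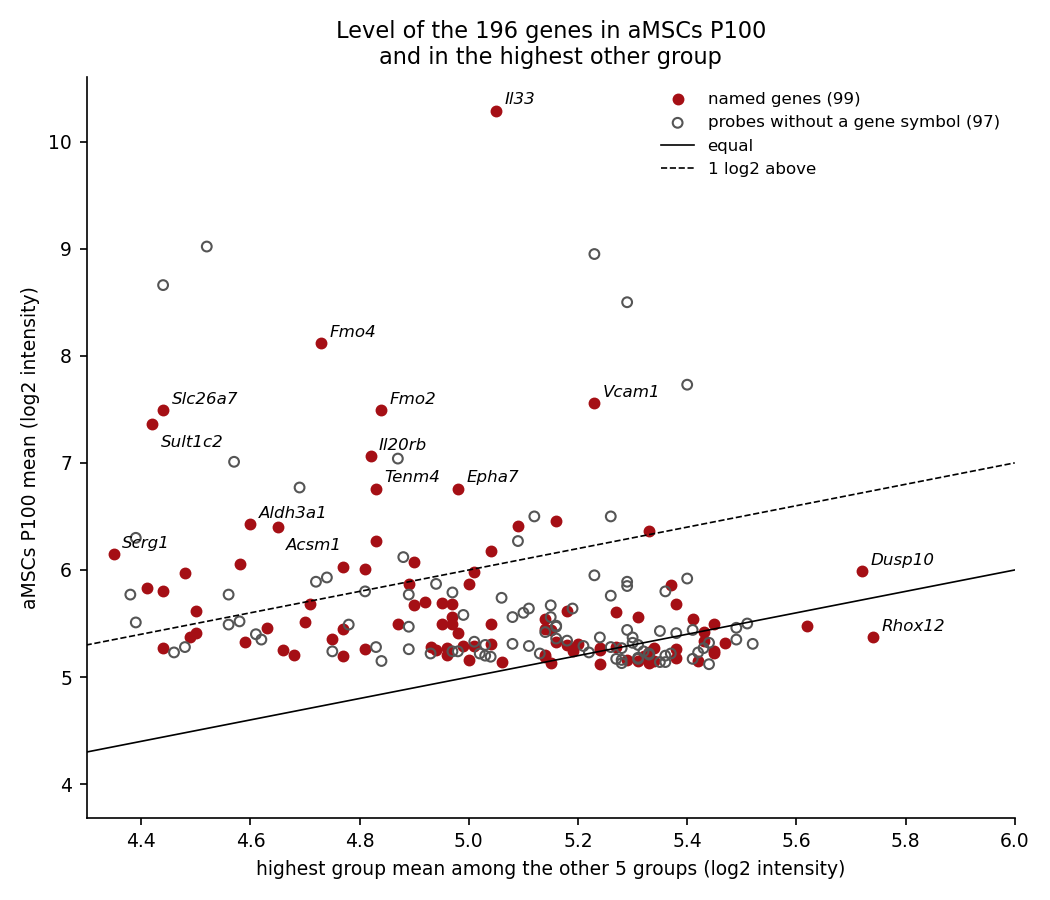
Mean of aMSCs P100 (y axis) against the highest mean of the other 5 groups (x axis), both in log2 intensity, for the 196 genes (filled, named; open, without a symbol). Most points lie at 5 to 6 on the y axis near the solid line of equality, and 43 lie at or above the dashed line, 1 log2 unit higher.

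The comparisons of aMSCs P100 with single groups use values that chose the members, so their counts are printed without a reading. With limma, at an adjusted p under 0.05 and a fold of at least 1.5, 108 of the 196 members were higher than in aMSCs P30, where 14.2% of tested genes were. Against yMSCs P100 the count was 95 of 196 (10.0% of tested genes), and against aMSCs P2 it was 115 of 196 (19.1%). The highest other group was aMSCs P30 for 71 members, yMSCs P100 for 53, yMSCs P30 for 33, aMSCs P2 for 21 and yMSCs P2 for 18.

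The values at the limit were close together. The named members nearest to the limit in aMSCs P100 were Qser1, Cyp2a2 and Zdhhc22, each with a mean detection p of 0.0097. Mul1, Slc18a3 and Rnf216 missed it at 0.0101. Zfp455, Qser1 and Foxo3 were nearest to detection in another group (0.0101), while Sparcl1, Tmem63c and Or7g32 were left out because another group reached 0.0097.

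Promoter sequence is a property that the rule did not use. RefSeq (GRCr8) gave a single start for 77 of the 99 named members, and the 250 bases before the start were read for each. The ratio of observed to expected CpG, which is high in the CpG islands of broadly expressed genes, was at least 0.6 in 37 of these 77 promoters (48.1%), against 72.2% of the 5446 promoters of tested genes that are no members. Among the 17 with a difference of at least 1 it reached 0.6 in 4 (23.5%), and among the other 60 in 33 (55.0%). Genes detected in another group alone had shares of 42.3% (yMSCs P2) to 62.1% (yMSCs P30), and each of these shares was below that of the other tested genes too.

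The promoters of a pair of neighbouring flavin-containing monooxygenase genes, of the sulfotransferase gene Sult1c2 and of the adhesion molecule gene Vcam1 are shown because these genes are among the 25 named members with the widest gaps and the results by role turn on them. Il33, Fmo4 and Slc26a7 had wider gaps, but no single start was available for them, so their promoters are not shown. Each sequence runs 5′ to 3′ along the gene and ends at the base before the RefSeq start. Capitals mark every match, on either strand, to the TATA box letters TATAAA, the CCAAT box, the kappaB-like letters GGANTTNCC, the antioxidant response core TGACNNNGC, the xenobiotic response core GCGTG or the interferon-stimulated response core GAAANNGAA. The motifs were chosen for the roles of the members.
Fmo1 (GRCr8 chr13:77747667-77747916, minus strand): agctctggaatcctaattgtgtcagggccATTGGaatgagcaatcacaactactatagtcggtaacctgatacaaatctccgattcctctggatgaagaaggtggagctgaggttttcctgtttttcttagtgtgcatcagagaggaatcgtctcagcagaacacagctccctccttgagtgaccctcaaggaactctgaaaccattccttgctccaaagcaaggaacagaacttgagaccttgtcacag
Fmo2 (GRCr8 chr13:77777535-77777784, minus strand): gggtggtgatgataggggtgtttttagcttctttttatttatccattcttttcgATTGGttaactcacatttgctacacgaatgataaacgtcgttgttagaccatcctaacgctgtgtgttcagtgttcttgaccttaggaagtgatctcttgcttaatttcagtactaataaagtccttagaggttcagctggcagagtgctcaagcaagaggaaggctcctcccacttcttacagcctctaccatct
Sult1c2 (GRCr8 chr9:7436731-7436980, plus strand): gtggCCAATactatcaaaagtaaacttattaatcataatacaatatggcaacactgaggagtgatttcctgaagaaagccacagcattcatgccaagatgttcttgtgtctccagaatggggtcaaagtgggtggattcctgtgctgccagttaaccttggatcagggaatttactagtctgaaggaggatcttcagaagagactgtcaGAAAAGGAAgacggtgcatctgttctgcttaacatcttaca
Vcam1 (GRCr8 chr2:206742784-206743033, minus strand): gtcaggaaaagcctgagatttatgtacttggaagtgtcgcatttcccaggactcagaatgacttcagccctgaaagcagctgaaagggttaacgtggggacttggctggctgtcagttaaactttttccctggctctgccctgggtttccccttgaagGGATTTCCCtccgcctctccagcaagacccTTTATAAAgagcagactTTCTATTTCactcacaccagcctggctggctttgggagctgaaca

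Fmo1, Fmo2 and Sult1c2 each held 1 CCAAT match, at different distances from the start (-221 to -217, -196 to -192 and -246 to -242). CCAAT was present in 34.4% of all 24206 promoters, in 36.1% of those of other tested genes and in 35.1% of member promoters. Vcam1, whose human promoter is known for paired kappaB sites, held the kappaB-like letters at -92 to -84, TATAAA at -60 to -55 with an overlapping match on the other strand, and the interferon-stimulated core at -45 to -37. Sult1c2 held that core at -41 to -33. TATAAA was present in 13.3% of all promoters, in 6.57% of those of other tested genes and in 6.49% of member promoters. For the interferon-stimulated core the shares were 7.99%, 6.24% and 7.79% in the same order. That core was in 3 of the 17 members with a difference of at least 1 (17.6%) and in 3 of the other 60 (5.00%). The kappaB-like letters were present in 6 of the 77 member promoters (7.79%), in 3.40% of those of other tested genes and in 3.02% of all promoters. They were in 1 of the 17 members with a difference of at least 1 (5.88%) and in 5 of the other 60 (8.33%). The xenobiotic core was present in 27.3% of member promoters and 46.7% of those of other tested genes, and it contains a CpG. The antioxidant core was present in 7 of the 77 (9.09%) and in 12.9% of the others.

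The genes are described by role, in groups drawn up after their values were seen. Those with roles in immune signalling were led by Il33, which codes for the alarmin interleukin 33, a nuclear cytokine that is released from damaged stromal and epithelial cells. It was the member with the widest gap of all. Its log2 intensity was 10.16, 10.56 and 10.15 on the aMSCs P100 arrays, and 4.46 at the lowest, 4.80 at the median and 5.46 at the highest on the 15 other arrays. The groups stood far apart, although 2 of the other arrays, 1 of yMSCs P2 and 1 of aMSCs P30, passed the detection limit. Where a group has no detected array its level is only known to lie below the limit, so folds were set against the lowest detected signal of each array or the probe's own value, whichever was higher, and are lower bounds. A group with a detected array was taken at its measured mean instead, and the bound given for a gene is the smallest over the groups without a detected array. Il33 was at least 29.4-fold higher in aMSCs P100 than in aMSCs P2, yMSCs P30 and yMSCs P100. Against the measured means of aMSCs P30 and yMSCs P2, each with 1 detected array, it stood higher by 5.24 and 5.39 on the log2 scale. The array holds another Il33 probe, which was detected in no group and had a mean detection p of 0.523 in aMSCs P100, so both probes of the gene disagree.

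Il1rl1, which codes for the receptor of interleukin 33, was detected in all groups and did not follow its ligand. Its mean in aMSCs P100 was 7.33 ± 0.44 (SD, n = 3 here and for the means that follow), between those of yMSCs P100 (6.04 ± 0.09) and aMSCs P30 (11.10 ± 0.09), and aMSCs P2 stood at 12.44 ± 0.38. In limma, Il1rl1 was lower than in aMSCs P30, with a log2 difference of -3.76 ± 0.22 (SE, adjusted p = 1.01e-09), and higher than in yMSCs P100, with 1.29 ± 0.22 (adjusted p = 0.000344). The chemokine, interleukin and receptor genes that are no members numbered 18 among the tested genes. Of these, 3 were higher and 4 lower in aMSCs P100 than in aMSCs P30, beside 14.2% and 12.2% of all tested genes. Against yMSCs P100, 4 were higher and 0 lower, beside 10.0% and 9.03%.

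Vcam1, the adhesion molecule CD106 that binds an integrin of blood cells, read 7.40, 7.61 and 7.67 on the aMSCs P100 arrays and 4.47 to 6.29, with a median of 4.71, on the others. The ranges did not overlap, and the highest other reading, on aMSCs P2 replicate 3, stood well apart from the rest. The bound was 4.40-fold. Rtp4, an interferon-induced receptor transporter, read 6.33, 6.00 and 6.47 against 4.34 to 5.47 (median 4.56), and its highest other reading came from the same array. For CD106, the paper reported the protein by flow cytometry on yMSCs P100 too, where the Vcam1 RNA was not detected here.

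Il20rb, a subunit of the receptors for interleukins of the IL-20 family, read 7.39, 6.59 and 7.19 in aMSCs P100, against 4.33 to 5.06 (median 4.54) elsewhere. It was detected on none of the 15 other arrays and was at least 3.11-fold higher. Fcrla, an Fc receptor-like protein of B cells, was uneven, at 5.85, 5.89 and 7.48. Its lower aMSCs P100 readings overlapped with yMSCs P2 replicate 3 at 6.02.

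The chemokine receptor gene Ccr1 read 5.06, 5.59 and 5.58 against at most 4.55 elsewhere. Socs1, an inhibitor of cytokine signalling, and Txk, a kinase of T cells, also stayed above all other arrays, by 0.09 and 0.33 at the closest. All of them were dim genes near the detection limit. The other members of this group gave no such separation. Nfkb1, a subunit of NF-kappaB, read 5.41, 5.72 and 5.31 in aMSCs P100 and up to 6.19 elsewhere, and was detected on 7 of the other arrays. Trim25, RT1-DOa and Unc13d likewise had a higher mean in another group, by 0.10 to 0.21, and Was, the Wiskott-Aldrich syndrome actin regulator, exceeded the highest other group by 0.16.

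None of the 10 tested genes in the list of interferon-induced genes was a member. Of these 10, 6 were higher and 1 lower in aMSCs P100 than in aMSCs P30 by limma, and 6 were higher and 1 lower than in yMSCs P100, beside 14.2% and 10.0% of all tested genes called higher and 12.2% and 9.03% called lower. Irf7, a transcription factor of the interferon response, was higher than in aMSCs P30 by 0.94 ± 0.22 (adjusted p = 0.00359) and than in yMSCs P100 by 1.07 ± 0.22 (adjusted p = 0.00184). Ifi44 was higher by 1.95 ± 0.19 (adjusted p = 7.79e-07) and 1.03 ± 0.19 (adjusted p = 0.000842). Cxcl10, an interferon-induced chemokine, was lower than in yMSCs P100 by the same test, with a log2 difference of -1.32 ± 0.20 (adjusted p = 0.000132).

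Enzymes that act on drugs, xenobiotics and small metabolites made up 10 members. Their median difference to the highest other group was 1.62, against 0.42 over all members. On no other array were 8 of the 10 detected, beside 71 of all 196 members. The group was drawn up with the values known, so neither number is read. All 3 flavin-containing monooxygenase (FMO) genes on the array, Fmo1, Fmo2 and Fmo4, were members. FMO enzymes add oxygen to the nitrogen or sulfur of drugs and are known from liver, kidney and lung. Fmo4 read 7.75, 8.53 and 8.07 in aMSCs P100 and 4.29 to 4.79 (median 4.52) elsewhere. Fmo2 read 7.44, 7.64 and 7.37 against 4.51 to 5.07 (median 4.79), and Fmo1 read 5.67, 5.75 and 6.06 against 4.32 to 4.46 (median 4.38). None of the 3 was detected on any other array and no ranges overlapped. The bounds were 6.49-fold for Fmo4, 4.19-fold for Fmo2 and 1.32-fold for Fmo1, whose own level was close to the detection limit.

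The FMO genes are neighbours. In the RefSeq order of protein-coding genes on chromosome 13 (GRCr8), Fmo4, Fmo1 and Fmo2 follow each other with no gene between them. On one side the nearest genes on the array are Vamp4 and Mettl13, which were detected in all groups. Vamp4 differed between aMSCs P100 and yMSCs P100 by 0.15 ± 0.18 (adjusted p = 0.585) and Mettl13 by -0.04 ± 0.21 (adjusted p = 0.911). On the other side, past 3 genes that are not on the array, lie Prrx1, Gorab and Kifap3. Prrx1, a homeobox factor of limb and craniofacial mesenchyme, was higher in aMSCs P100 (9.76 ± 0.09) than in yMSCs P100 (6.66 ± 0.05), by 3.10 ± 0.18 (adjusted p = 1.09e-09), and than in aMSCs P30 (9.03 ± 0.08), by 0.73 ± 0.18 (adjusted p = 0.0052). Gorab was higher than in yMSCs P100 by 1.34 ± 0.17 (adjusted p = 1.9e-05) and Kifap3 by 1.10 ± 0.24 (adjusted p = 0.00253). Against aMSCs P30, Gorab was higher by 0.88 ± 0.17 (adjusted p = 0.000945) and the difference in Kifap3 was 0.42 ± 0.24 (adjusted p = 0.183), which did not pass. Compared with aMSCs P2, Prrx1 was higher by 1.25 ± 0.18 (adjusted p = 2.78e-05) and Kifap3 by 0.80 ± 0.24 (adjusted p = 0.011). Gorab fell short of the fold limit there, at 0.54 ± 0.17 (adjusted p = 0.0159). In yMSCs P2, Prrx1 stood at 9.24 ± 0.16 and Gorab at 7.98 ± 0.17. For Prrx1, Gorab and Kifap3, yMSCs P100 had the lowest mean of all groups. Scyl3, the next gene on the array, fell short of the fold limit against yMSCs P100 at 0.49 ± 0.17 (adjusted p = 0.042), and its difference to aMSCs P30 was -0.33 ± 0.17 (adjusted p = 0.143).

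**Figure D4:**
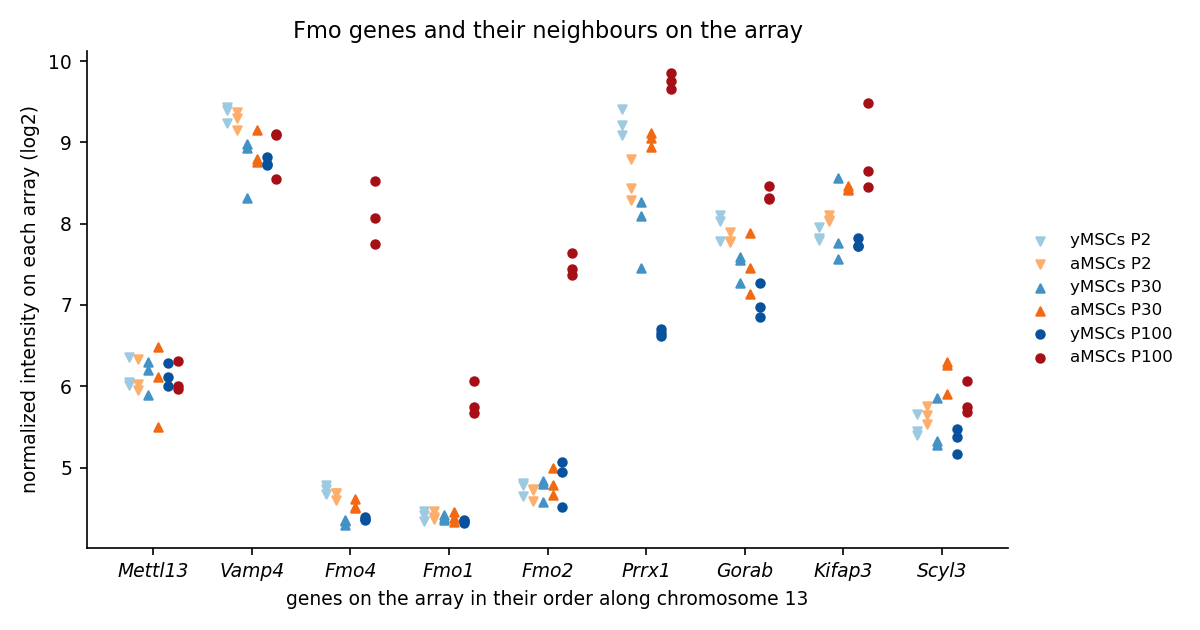
Normalized log2 intensity on each array (y axis) of genes on the array around the FMO genes, in their order along chromosome 13 (x axis, not to distance), with 3 points per group. Fmo4, Fmo1 and Fmo2 sit at 4.29 to 5.07 in all other groups and above 5.6 in aMSCs P100, while Vamp4 and Mettl13 overlap between groups.

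Sult1c2, a cytosolic sulfotransferase that conjugates phenols and drugs with sulfate, read 7.42, 7.02 and 7.62 against 4.32 to 4.50 (median 4.36), and the bound was 3.83-fold. Aldh3a1, an aldehyde dehydrogenase known from the cornea, read 6.50, 6.00 and 6.78 against 4.37 to 4.76 (median 4.47). Acsm1, a mitochondrial acyl-CoA synthetase of medium-chain fatty acids, read 6.37, 6.51 and 6.31 against 4.40 to 4.67 (median 4.51). For each of them the 3 aMSCs P100 arrays stood clear of the 15 others, none of which detected the gene.

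Akr1c19, an aldo-keto reductase, read 6.20, 5.90 and 6.07 against 4.35 to 4.71 (median 4.48). It lies on chromosome 17 between Akr1c13 and Akr1c12 in the RefSeq order. Both neighbours, and Akr1c14 beyond them, were detected in other groups too and are no members. They were named after their values were seen. Akr1c2, Akr1c3 and Akr1c15, which lie in the same cluster and are on the array, were detected in no group. By limma Akr1c13, Akr1c12 and Akr1c14 were each higher in aMSCs P100 than in aMSCs P30, by 2.77 ± 0.19 (Akr1c13, adjusted p = 1.04e-08), 2.84 ± 0.16 (Akr1c12, adjusted p = 5.66e-10) and 2.70 ± 0.15 (Akr1c14, adjusted p = 6.8e-10). Against yMSCs P100 the differences were 2.33 ± 0.19, 1.92 ± 0.16 and 2.54 ± 0.15. Akr1c14 was not highest in aMSCs P100 alone. It read 6.63, 7.32 and 6.84 in yMSCs P2, which overlapped with 7.05, 7.29 and 7.18 in aMSCs P100. Genes of this cluster are close in sequence, and hybridization of one transcript to the probe of another was not tested.

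The remaining enzymes were dimmer. Aadat, an aminotransferase of the kynurenine pathway, read 5.75, 5.64 and 5.65 against at most 4.78. Cyp2a2, a cytochrome P450 known from rat liver, and Pm20d1, a peptidase that forms N-acyl amino acids, differed from the highest other group by -0.02 and 0.08. Cyp2a2 was the only member among 17 tested P450 genes. Of the other tested genes in families added after values were seen, 1 of 3 sulfotransferases was higher in aMSCs P100 than in aMSCs P30 and 2 of 3 than in yMSCs P100, with 0 lower in either. Of 6 aldehyde dehydrogenases, 1 was higher and 1 lower than in aMSCs P30, and 0 were higher and 1 lower than in yMSCs P100. Of 7 aldo-keto reductases, 4 were higher and 0 lower than in aMSCs P30, and 3 were higher and 0 lower than in yMSCs P100. Over all tested genes, 14.2% were higher and 12.2% lower than in aMSCs P30, and 10.0% and 9.03% than in yMSCs P100.

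Genes known from the nervous system, from axon guidance and from cell adhesion in the brain made up 13 members. The group was drawn up with the values known, and Npffr2 and Zdhhc22, which also have roles in the nervous system, stand in other groups, so no count of its members is read. Tenm4, a teneurin that guides connections between neurons, read 6.72, 7.01 and 6.54 in aMSCs P100 and 4.50 to 5.20 (median 4.69) elsewhere. Epha7, a receptor for ephrins, read 6.55, 6.97 and 6.76 against 4.35 to 5.19 (median 4.77). In both the bound was 2.53-fold, and the separation held on every array, although Tenm4 was detected on 1 other array and Epha7 on 2.

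Sema3a, a secreted repellent of growing axons, read 6.19, 6.23 and 5.65 against 4.48 to 4.90 (median 4.57). Rgma, a repulsive guidance molecule and co-receptor of bone morphogenetic proteins, read 5.85, 5.71 and 5.44 against 4.50 to 5.27 (median 4.71). Sema4c, a membrane-bound semaphorin, exceeded the highest other array by 0.04. Of the 12 other semaphorin, ephrin receptor and guidance genes tested, a family added after values were seen, 3 were higher and 1 lower in aMSCs P100 than in aMSCs P30 (beside 14.2% and 12.2% of all tested genes), 3 were higher and 3 lower than in yMSCs P100 (beside 10.0% and 9.03%), and the rest were not called.

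Myt1l, a zinc finger factor of neurons, read 5.86, 6.07 and 5.99 against 4.32 to 4.58 (median 4.37). Cnksr2, a scaffold protein of synapses, read 6.41, 6.46 and 6.51 against 4.50 to 5.37 (median 4.79), with the closest aMSCs P100 arrays of the 25 genes named first. Lrfn5, a synaptic adhesion molecule, read 5.49, 5.79 and 5.59 against 4.32 to 4.62. All 3 stood apart on every array.

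Cspg5, a chondroitin sulfate proteoglycan of the brain, read 6.38, 6.18 and 6.53 against 4.59 to 5.86 (median 4.94), was detected on 4 other arrays, and has another probe that no group detected. Scrg1, which was first described in scrapie-infected brain and is also known from differentiating cartilage, was uneven within aMSCs P100, at 5.63, 5.50 and 7.33, against at most 4.43 elsewhere. Cntnap1 and Shc3 lay above the other arrays by 0.42 and 0.41, and the synaptic vesicle protein gene Syt1 overlapped with them. In 6 members the aMSCs P100 arrays lay more than 1 log2 unit apart, and replicate 3 was the highest in all 6, Scrg1 and Fcrla among them. Of the list of neuronal genes, Syt1 was the only member among 6 tested, and none of the other 5 was called in either direction against aMSCs P30 or yMSCs P100. Over all tested genes, 14.2% were higher and 12.2% lower than in aMSCs P30, and 10.0% and 9.03% than in yMSCs P100. With only 5 genes the absence of calls is not read.

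Among transporters and channels, Slc26a7, an anion exchanger of stomach and kidney, was the brightest, at 7.41, 7.86 and 7.22 against 4.33 to 4.48 (median 4.37), and the bound was 4.21-fold. No other array detected it. Slc26a7 is a direct neighbour of Runx1t1 on chromosome 5 in the RefSeq order, and Runx1t1, a transcriptional co-repressor, was also a member. Runx1t1 read 5.45, 5.97 and 5.21, which overlapped with yMSCs P30 replicate 1 at 5.49. Of 138 tested solute carrier genes 4 were members, and Slc46a3, Slc25a10 and Slc5a5 (the sodium iodide symporter) differed from the highest other group by 0.31, 0.31 and 0.01. Scnn1a, a subunit of the epithelial sodium channel, and the potassium channel gene Kcna10 differed by 0.27 and -0.13.

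**Figure D5:**
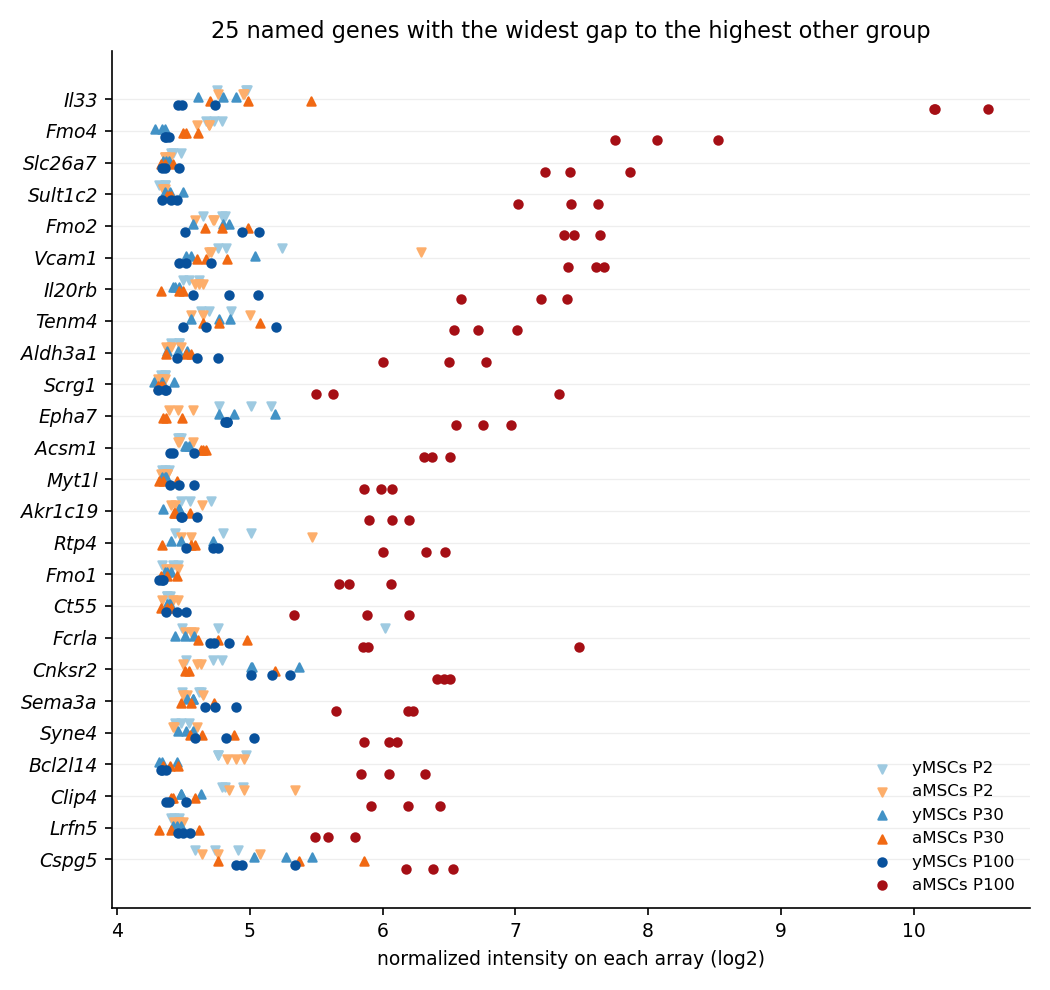
Normalized log2 intensity on each of the 18 arrays (x axis) for the 25 named members with the widest gap (y axis), 3 points per group. The aMSCs P100 points lie to the right of all others in every row but that of Fcrla, and Il33 stands farthest out at 10.15 to 10.56.

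The other transcription factor members were dim, and none exceeded the highest other group by 1 log2 unit. Tp63, the p53 relative that marks basal epithelial cells, came first at 5.14, 5.25 and 5.41 against 4.36 to 4.48 (median 4.42). Rarb, a retinoic acid receptor, read 5.43, 5.18 and 5.38 against at most 4.74, and Etv1, an ETS factor, read 5.44, 5.71 and 5.19 against at most 4.80. These 3 genes were detected on no other array. Foxo3, Zfp455, Gli4 and Irx1 differed from the highest other group by 0.03 to 0.30, and Rhox12, a homeobox gene of the reproductive system, was higher in yMSCs P100, by 0.36.

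Members in receptor and kinase signalling were similar. Gab1, an adaptor below growth factor receptors, read 5.73, 6.21 and 5.66 against 4.38 to 5.43 (median 4.67). Plce1, a phospholipase C, read 5.94, 6.04 and 5.96 against 4.41 to 5.35 (median 4.71), and the somatostatin receptor gene Sstr2 read 5.55, 5.55 and 5.59 against at most 5.16. These ranges did not overlap. Egfr and Erbb2, which code for receptors of the epidermal growth factor family, were detected on 4 and 3 other arrays and exceeded aMSCs P30 by 0.25 and 0.35. Dusp10, a phosphatase of stress-activated kinases, read 5.93, 6.04 and 5.98 and lay within the range of aMSCs P30 (4.76 to 6.47). Dusp7, Prlr, Sufu, Rgs9 and Npffr2 had a higher mean in aMSCs P30.

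Of the other 37 named members, 4 exceeded the highest other group by at least 1 log2 unit. Ct55, a cancer/testis antigen gene on the X chromosome, read 5.88, 5.33 and 6.20 against 4.33 to 4.52 (median 4.39). Bcl2l14, a member of the Bcl-2 family, read 6.05, 5.84 and 6.32 against 4.32 to 4.97 (median 4.45). Syne4, a nesprin of the nuclear envelope, read 6.05, 5.86 and 6.11 against 4.42 to 5.03 (median 4.55), and the microtubule-binding Clip4 read 5.91, 6.43 and 6.19 against 4.37 to 5.34 (median 4.59). All 4 stood above every other array.

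Genes of bone and matrix were few among the members. Phex, a peptidase that controls phosphate and mineral in bone, read 5.65, 5.68 and 5.76 against 4.37 to 5.34 (median 4.57). It was the only member among 14 tested osteoblast and mineralization genes. Of the other 13, 1 was higher and 3 lower in aMSCs P100 than in aMSCs P30 (beside 14.2% and 12.2% of all tested genes). Against yMSCs P100, 5 were higher and 0 lower (beside 10.0% and 9.03%), and against aMSCs P2, 3 were higher and 7 lower. The share of tested genes called higher than in aMSCs P2 was 19.1%. The share called lower is not reported here, so the count of 7 lower has nothing to be set beside and is not read. Rspo1, an enhancer of Wnt signalling, differed from the highest other group by 0.30, and so did the protease inhibitor gene Spink4. Of 48 tested olfactory and vomeronasal receptor genes, Olr1675 and Or9i13 were members, with differences of 0.58 and 0.07. The cell cycle inhibitor gene Cdkn2c and the DNA repair gene Fancc differed by 0.01 and -0.23.

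The 97 members without a symbol resembled the named ones, with a median difference of 0.32 and 18 members at 1 or more. The probe ILMN_54837 read 8.84, 9.12 and 9.08 against 4.34 to 4.60, and ILMN_66044 read 8.43, 9.15 and 8.40 against 4.31 to 4.46. After Il33 these had the widest gaps, and neither was detected on another array.

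By position, the 99 named members were spread over all 21 chromosomes with a tested gene. They made up 1.45% of the 6828 tested genes with a known chromosome, from 0.445% on chromosome 7 to 3.40% (7 of 206) on chromosome 13, where the FMO genes account for 3 of the 7. On the X chromosome the share was 2.88% (6 of 208). Of 6 member genes with another probe on the array (Il33, Cspg5, Kcna10, Irx1, Nipsnap2 and Zdhhc22), no other probe was detected in any group.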

How the data were processed

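RNA of rat MSCs was hybridized to RatRef-12 BeadChips, 3 arrays in each of 6 groups and 18 in all, and the labels gave each array its donor age, passage and replicate number. The authors deposited one intensity for each of 22226 probes, the mean bead signal from BeadStudio 3, with no background subtraction and no normalization between arrays. Beside it they deposited a detection p-value in steps of 1 in 825. Their background-subtracted, rank invariant normalized intensities were used as an alternative, floored at 16, and 70 probes that do not pair between both tables were kept without a name.

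Log2 values were computed with neqc of limma 3.58.1 in R 4.3.3 (normexp by detection p-values, offset 16, quantile normalization). Each gene was represented by the probe with the highest mean, and a probe without a symbol counted as a gene. The 9531 genes detected in at least 1 group were fitted with limma as 6 group means over 18 arrays, and p-values were adjusted by Benjamini-Hochberg over all of them. The fit was tested on simulated data. The number of arrays limits the precision, and no depth is known beyond signal over background.

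The members and gene lists were chosen with earlier results of these data known. Named genes are the first 25 named members by the difference to the highest other group among those detected on all 3 aMSCs P100 arrays, members in a gene list or family, and the 3 genes on either side of each limit. Other members, the role groups and 5 of the gene families were picked after their values were seen. The alternatives tried were other detection limits, other background, offset, normalization and probe choices, the series' normalized intensities, both t-test forms, the replicate block and leaving out single arrays. Same-numbered arrays of different groups did not deviate together (correlations of -0.12 to 0.08), so numbers were not used as pairs.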

Additional observations from a re-analysis of the deposited data

How the results depend on the processing

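The number of members depended on the detection rule. Of the 196 genes, 52 remained with the limit applied to each array, and 47 when a mean detection p above 0.05 was required in the other groups. A limit of 0.005 gave 113 genes (67 shared with the members) and a limit of 0.05 gave 207 (47 shared). As alternatives chosen after seeing the data, 97 members had all aMSCs P100 arrays above all others and 43 stood at least 1 log2 unit above the highest other group. Leaving out 1 array gave 175 to 309 genes, and the highest count came without aMSCs P100 replicate 3. The members that met the first 4 of these rules numbered 23, 14 of them named, with a median difference of 1.49, and 101 members met none of the 4, with a median difference of 0.05. Of the 25 genes named first, 13 met all 4. Il33, Vcam1, Tenm4 and Epha7 met only the limit of 0.005, and Fmo4 and Fmo2 failed both rules that use 0.05.

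The counts of members higher than in aMSCs P30, yMSCs P100 and aMSCs P2 were 48, 46 and 52 with an offset of 50 and 71, 63 and 73 without background correction. The methods' t-test after Benjamini-Hochberg adjustment gave 67 for aMSCs P30. With single arrays left out the counts were 103 to 111, 90 to 100 and 110 to 119. With the replicate block they were 108, 95 and 115, the same as without it. The median difference of 0.42 became 0.22 with the offset of 50 and 0.36 to 0.40 with single arrays left out. For the 25 genes named first, no difference changed sign in 150 recomputed values, but with the offset of 50 they ranged from 0.56 to 4.25 and 22 of them fell by more than 1.5 times. Signal over background limits all values of genes near the detection limit, where folds depend on the offset.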
